A study of Homo sapiens with 4 samples.

Results

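The genes described here are *EEF1A2* and the other cytosolic translation elongation factors: *EEF1A1*, *EEF1A2*, *EEF1B2*, *EEF1D*, *EEF1G*, *EEF1E1*, *EEF2*, *EEF2K*, *EIF5A* and *EIF5A2*. They are 10 of the 16813 genes listed in at least 1 library. All 10 were listed in all 4 libraries and passed the filter on low counts, which left 13148 genes for testing. The set was chosen by gene name, around *EEF1A2*, after the difference of this gene between the lines had been seen in the same libraries. The differences of the 10 genes between the lines are therefore given as a description, with no p-value printed. Where a member is said to be called or not called at a threshold, that is a description too.

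PC9 is a lung adenocarcinoma cell line with an activating *EGFR* mutation, and PC9OR is a derivative that is resistant to osimertinib, an inhibitor of mutant EGFR. Total RNA of 2 replicates of PC9 (labelled control) and 2 of PC9OR (labelled osimertinib resistant) was sequenced after stranded library preparation, 4 libraries in all. Both lines carry the genotype label WT and were kept in the same medium, RPMI with serum, and the labels name no drug in it. PC9OR is a single derived line, so resistance and any other difference that the line acquired in culture cannot be told apart. The labels call the replicates biological.

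Elongation factors move the ribosome along the messenger RNA. eEF1A, made from the *EEF1A1* gene in most cells and from the *EEF1A2* gene in adult neurons, heart and skeletal muscle, carries aminoacyl-tRNA to the ribosome as a complex with GTP. The eEF1B subunits recharge eEF1A with GTP, eEF2 moves the ribosome to the next codon and is inhibited through phosphorylation by the kinase eEF2K, and eIF5A, which carries the modified lysine hypusine, helps stalled ribosomes to form peptide bonds.

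Related genes can be told apart only where their sequences differ. On GRCh37, the build named in the submitters' notes, *EEF1A2* lies at chr20:62119366-62130592 on the minus strand, and *EEF1A1* at chr6:74199031-74235310 on the minus strand. Their coding sequences, of 1389 and 1386 bases, were identical at 78.1% of the aligned bases, and the longest identical run was 20 bases. In 100-base windows of the alignment the fewest differences were 13, the median 22 and the most 31. The window with the fewest differences is shown, since it is where a read is hardest to assign. It covers coding bases 73 to 172 of both canonical transcripts, and capitals mark the 13 bases that differ.
EEF1A1: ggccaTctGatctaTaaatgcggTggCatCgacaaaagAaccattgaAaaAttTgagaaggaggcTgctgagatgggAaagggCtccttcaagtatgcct
EEF1A2: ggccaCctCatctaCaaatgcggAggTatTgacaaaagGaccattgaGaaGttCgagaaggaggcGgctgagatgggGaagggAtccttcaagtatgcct
None of the 1674 windows of 100 bases in the canonical *EEF1A2* transcript was found exactly in the transcript of another annotated gene (0%), whereas 29.53% of those of *EEF1A1* were shared with other genes, led by its processed pseudogenes. The files listed 0 rows named as *EEF1A1* pseudogenes, and none of the shared *EEF1A1* windows belonged to a gene that the files list.

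*EIF5A*, at chr17:7210318-7215782 on the plus strand, and *EIF5A2*, at chr3:170606207-170626433 on the minus strand, were less alike. Their coding sequences, of 462 and 459 bases, were identical at 71.5% of the aligned bases, with a longest identical run of 14 bases. The window with the fewest differences covers coding bases 85 to 184, and capitals mark the 18 bases that differ.
EIF5A: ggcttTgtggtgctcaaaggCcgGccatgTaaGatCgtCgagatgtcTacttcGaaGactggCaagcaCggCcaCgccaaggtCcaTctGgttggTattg
EIF5A2: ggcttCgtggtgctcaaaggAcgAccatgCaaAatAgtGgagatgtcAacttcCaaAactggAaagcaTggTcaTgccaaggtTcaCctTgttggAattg
The share of 100-base windows found exactly in another gene was 0% for *EIF5A2* and 12.53% for *EIF5A*, led by the intronless copy *EIF5AL1*, which had at most 1.25 expected counts in any library. It was also 0% for *EEF1D*, *EEF2* and *EEF2K*. It was 34.98% for *EEF1B2*, 31.01% for *EEF1E1* (all with the readthrough gene *EEF1E1-BLOC1S5*, which had 17.4 expected counts in PC9 replicate 1 and 0 in the other libraries) and 95.47% for *EEF1G* (nearly all with an overlapping annotated gene that the files do not list). The counts of these last 3 genes are uncertain to the extent that the authors' counting could split such reads.

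The expected counts summed to 23201307 in PC9 replicate 1, 29062064 in PC9 replicate 2, 31948974 in PC9OR replicate 1 and 32203998 in PC9OR replicate 2. A count of 3, taken as the floor of detection for counting error only, corresponded to between 0.0932 and 0.129 CPM, the count scaled to the library total. The PC9 replicates stood further apart than the PC9OR replicates. The biological coefficient of variation was 0.241 in PC9 and 0.104 in PC9OR. The difference between the PC9 replicates also followed transcript length, with a rank correlation of -0.44 across 11952 genes, against -0.00 between the PC9OR replicates and -0.38 between the lines, where genes are not independent replicates. Which of the PC9 replicates stands apart cannot be told from a pair. Results are therefore also given without a PC9 replicate and with an offset that removes the length trend of each library.

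The labelled tissue was checked with marker genes. The epithelial marker *EPCAM* had 334, 334, 319 and 343 CPM in PC9 replicates 1 and 2 and PC9OR replicates 1 and 2, the order kept for all groups of 4 values below. The keratins *KRT7*, *KRT8*, *KRT18* and *KRT19* were at 862 CPM or more in every library. The lung lineage factor *NKX2-1* was at 0, 0, 0.125 and 0.375 CPM, the alveolar protease *NAPSA* was at most 0.343 CPM, and the surfactant genes *SFTPB* and *SFTPC* were at 0 in all 4 libraries. The epithelial genes *CDH1* (463, 338, 151 and 140 CPM) and *MUC1* (4.61, 2.91, 0.468 and 0.719 CPM) were lower in PC9OR, while the 4 keratins were higher (log2 fold changes from 0.94 to 1.28). Epithelial genes were thus present in both lines, at levels that differed between them, and the defining lung genes were at or near 0.

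*EEF1A2* was the member with the largest difference. It had 31, 39, 1548 and 1415 expected counts, or 1.32, 1.35, 48.3 and 44.2 CPM normalised with TMM. Both PC9OR libraries were far above both PC9 libraries, and the replicates of each line lay close together. The log2 fold change was 5.11 (SE 0.162, 2 libraries a line), which is 34.5-fold. In FPKM, which is scaled to transcript length, *EEF1A2* was at 0.5 in both PC9 libraries and at 17.8 and 15.9 in PC9OR. It ranked 59th of the 13148 tested genes by log2 fold change. In the PC9 libraries its FPKM exceeded that of 24.6% and 23.5% of the listed genes, and in the PC9OR libraries 78.1% and 76.5%. The PC9 counts of *EEF1A2* were above the floor of 3 counts, so the gene was detected in PC9 at a low level.

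**Figure D1:**
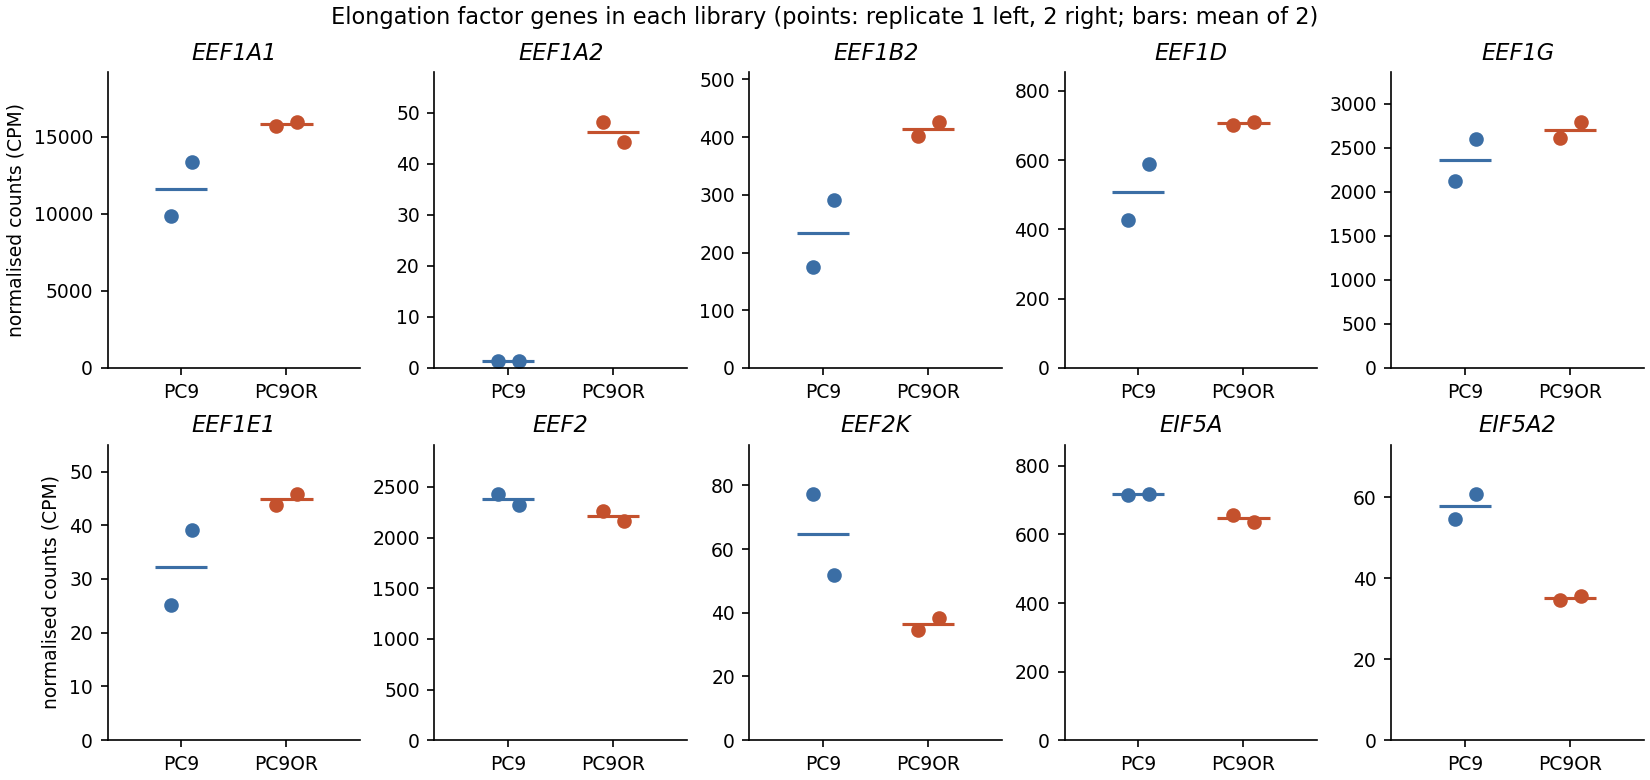
Normalised counts in CPM (vertical axis, from 0, with its own scale in each panel) of the 10 elongation factor genes in the 2 PC9 and 2 PC9OR libraries. Points are libraries and bars the mean of 2, and *EEF1A2* stands at 1.32 and 1.35 CPM in PC9 and at 48.3 and 44.2 CPM in PC9OR.

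The ubiquitous paralogue *EEF1A1* remained by far the main source of eEF1A message in both lines. It had 2047, 2710, 3176 and 3181 FPKM, and it was the gene with the most expected counts in every library, at 0.994%, 1.32%, 1.57% and 1.59% of all counts. PC9 replicate 2 lay between PC9 replicate 1 and the PC9OR libraries, and the lines did not overlap. The log2 fold change of *EEF1A1* was 0.45 (SE 0.165), 0.24 without PC9 replicate 1, 0.67 without PC9 replicate 2 and 0.58 with the length offset.

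*EEF1A2* made up 0.0244% and 0.0184% of the summed FPKM of *EEF1A1* and *EEF1A2* in PC9, and 0.556% and 0.498% in PC9OR. The mean share in PC9 was 0.0214% ± 0.00422 (SD, n = 2). In PC9OR it was 0.527% ± 0.0408 (SD, n = 2), which is 24.6 times as large. In PC9 there were thus 4094 and 5420 *EEF1A1* FPKM for each *EEF1A2* FPKM, and in PC9OR 179 and 200. In expected counts the shares were 0.0134% (95% Wilson interval 0.00946 to 0.0191), 0.0101% (0.00742 to 0.0139), 0.308% (0.293 to 0.323) and 0.276% (0.262 to 0.291), where the intervals cover counting error only. The intervals of the PC9 libraries lay far below those of the PC9OR libraries. *EEF1A1* and *EEF1A2* together had 2047, 2710, 3194 and 3197 FPKM. Of the difference between the line means, 800.1 FPKM came from *EEF1A1* and 16.3 FPKM from *EEF1A2*. The *EEF1A1* part rests on PC9 replicates at 2047 and 2710 FPKM, and it is smaller without PC9 replicate 1.

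**Figure D2:**
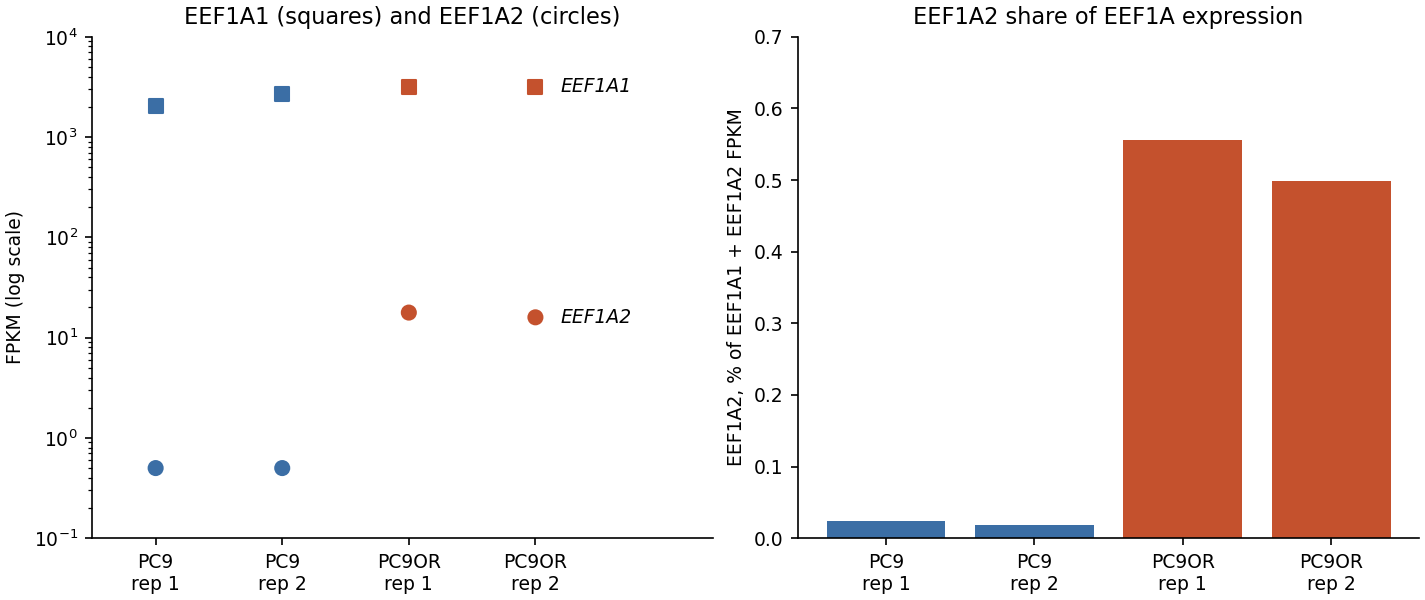
Left, FPKM of *EEF1A1* (squares) and *EEF1A2* (circles) in each library on a log axis. Right, the share of *EEF1A2* in their summed FPKM as bars from 0, which was 0.0244% and 0.0184% in the PC9 libraries and 0.556% and 0.498% in the PC9OR libraries.

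The eEF1B subunits, which exchange GDP for GTP on eEF1A, were each higher in PC9OR, but their differences were small beside that of *EEF1A2* and the PC9 replicates differed among themselves. *EEF1B2*, the alpha subunit with exchange activity, had 175, 291, 403 and 427 CPM. The step between the PC9 replicates was about as large as that between PC9 replicate 2 and the PC9OR libraries, and the log2 fold change of 0.83 (SE 0.252) became 0.50 without PC9 replicate 1, 1.23 without PC9 replicate 2 and 0.45 with the length offset. *EEF1D*, the delta subunit, which also has exchange activity, had 426, 589, 701 and 712 CPM, with a log2 fold change of 0.48 (SE 0.178), 0.26 without PC9 replicate 1, 0.71 without PC9 replicate 2 and 0.22 with the length offset. *EEF1G*, the gamma subunit that holds the complex together, had 2124, 2599, 2612 and 2796 CPM. Its PC9 replicate 2 lay just below PC9OR replicate 1, and its log2 fold change of 0.20 (SE 0.138) became 0.05 without PC9 replicate 1, 0.33 without PC9 replicate 2 and -0.00 with the length offset.

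*EEF1E1* encodes AIMP3, a scaffold protein of the multi-tRNA synthetase complex. It had 25.3, 39.1, 43.9 and 45.9 CPM, with PC9 replicate 2 nearer to the PC9OR libraries than to PC9 replicate 1. The log2 fold change was 0.48 (SE 0.224), 0.19 without PC9 replicate 1 and 0.81 without PC9 replicate 2. It was 0.15 with the length offset and turned to -0.07 with the length and GC offset. The deposited transcript length of *EEF1E1*, weighted by isoform use, was 1008, 1049, 1066 and 1072 bases, so its FPKM and its counts do not scale alike.

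Per length, the proportions among eEF1 genes shifted with the library. For each *EEF1B2* FPKM there were 12.7, 10.4, 8.69 and 8.42 FPKM of *EEF1A1*, so that both PC9OR libraries had less *EEF1A1* per *EEF1B2* than both PC9 libraries. For each *EEF1G* FPKM there were 1.93, 2.13, 2.47 and 2.36 FPKM of *EEF1A1*, with the PC9OR libraries higher. The ratio of *EEF1A1* to *EEF1D* was 8.04, 7.74, 7.58 and 7.58 and moved little. *EEF1G* exceeded *EEF1B2* 6.59-fold, 4.89-fold, 3.51-fold and 3.56-fold in FPKM, with the widest gap between replicates again in PC9. These ratios are of FPKM as deposited. With the length offset the log2 fold change of *EEF1A1* (0.58) exceeded those of *EEF1B2* (0.45) and *EEF1D* (0.22), so the direction of the ratio to *EEF1B2* turned and the ratio to *EEF1D* no longer stayed level.

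*EEF2*, the translocase, had 2432, 2323, 2265 and 2161 CPM, a log2 fold change of -0.10 (SE 0.103). It was -0.02 with the length offset and turned to 0.12 with the length and GC offset. The PC9OR libraries were below the PC9 libraries, but the gap between the nearest libraries of the lines was smaller than that between the replicates of either line. *EEF2K*, the calcium and calmodulin dependent kinase that phosphorylates eEF2, had 77.4, 51.9, 34.7 and 38.3 CPM. Both PC9OR libraries were below both PC9 libraries, with a log2 fold change of -0.82 (SE 0.216). It was -0.51 without PC9 replicate 1, -1.10 without PC9 replicate 2, -0.28 with the length offset and -0.11 with the length and GC offset. *EEF2K* was not called with either offset, nor without either PC9OR replicate, and it has a long transcript, of 7398 bases in its canonical form. The FPKM of *EEF2* were 75.6, 108, 158 and 136 times those of *EEF2K*.

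*EIF5A*, the ubiquitous hypusine-containing factor, had 716, 719, 656 and 638 CPM and a log2 fold change of -0.15 (SE 0.102). Both lines were tight, and the PC9OR libraries lay slightly lower. The estimate was -0.41 with the length offset and -0.29 with an offset for length and GC content, and *EIF5A* was called lower with either offset. *EIF5A2*, its tissue-restricted paralogue, had 54.7, 60.9, 34.6 and 35.6 CPM. Both PC9OR libraries were below both PC9 libraries, with a log2 fold change of -0.72 (SE 0.117), -0.80 without PC9 replicate 1. It was -0.38 with the length offset, under which, as without either PC9OR replicate, *EIF5A2* was not called, and -0.48 with the length and GC offset. *EIF5A2* made up 1.67%, 1.83%, 1.14% and 1.21% of the summed FPKM of *EIF5A* and *EIF5A2*. These shares are not corrected for transcript length trends, and with the length offset the estimates of the paralogues were about alike.

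**Figure D3:**
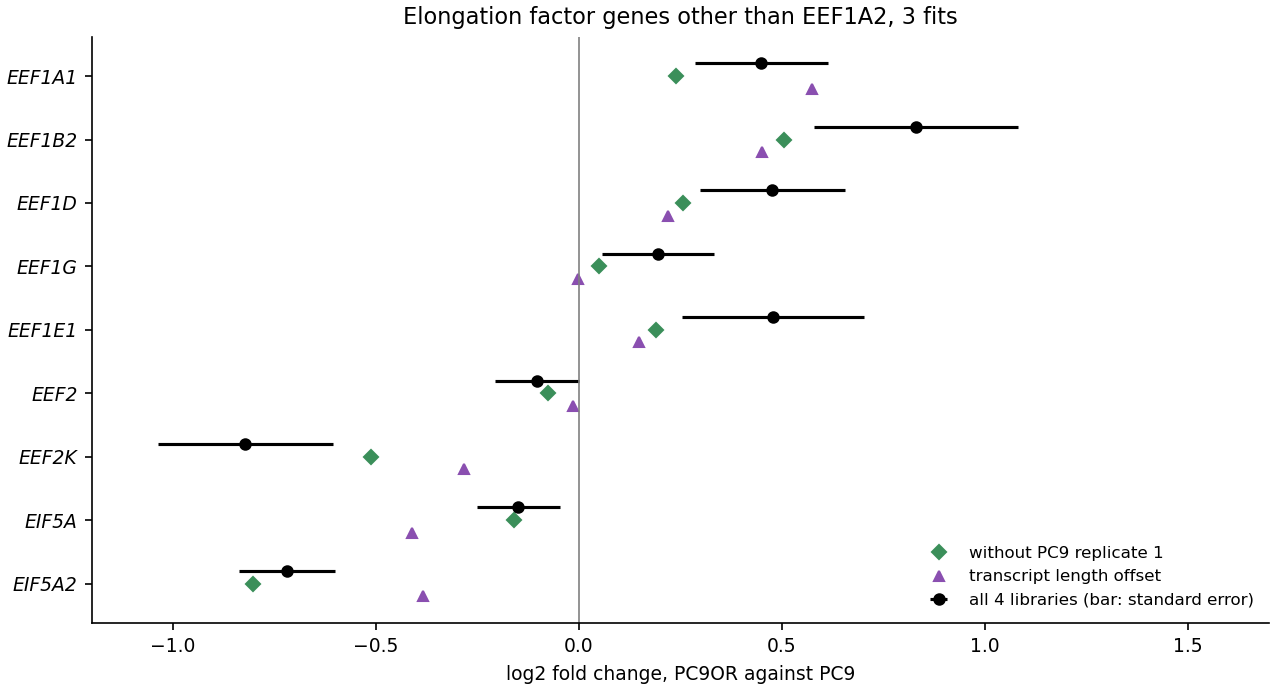
Log2 fold change of PC9OR against PC9 (horizontal axis) for the 9 elongation factor genes other than *EEF1A2*. Black points with bars are estimates from all 4 libraries with their standard error, diamonds the estimates without PC9 replicate 1 and triangles those with the length offset; *EEF2K* moves from -0.82 to -0.28 with the offset.

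Over all genes tested, edgeR's quasi-likelihood test called 2056 of 13148 higher in PC9OR (15.6%) and 2734 lower (20.8%) at a Benjamini-Hochberg adjusted p under 0.05. Of the 10 elongation factor genes, it called 1 higher (*EEF1A2*), 2 lower (*EEF2K* and *EIF5A2*) and left 7 not called. Among all tested genes, 39.6% had every PC9OR value above every PC9 value and 38.2% had every one below, and for the elongation factor genes this held for 6 and 4 of 10. Since the genes were selected on these libraries, these counts are a description. The median log2 fold change of the 10 genes was 0.32, against 0.01 for all genes tested, and with the length offset both medians were 0.07. Without PC9 replicate 2 the log2 fold changes of the 6 members higher in PC9OR ran from 0.33 (*EEF1G*) to 5.11 (*EEF1A2*). Without PC9 replicate 1 they ran from 0.05 to 5.09, with the same genes at the ends. *EEF2K* was at -1.10 and -0.51 in these fits, and *EIF5A2* at -0.66 and -0.80. In 8 of the 10 genes PC9 replicate 2 lay on the PC9OR side of PC9 replicate 1. The share of all tested genes with this order was not taken, so the count cannot be read as a trait of these genes. In bulk RNA, a difference in the number of cells of a kind and a difference in RNA per cell cannot be told apart.

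In PC9OR the order of the members by mean FPKM was *EEF1A1*, *EEF1G*, *EEF2*, *EEF1D*, *EEF1B2*, *EIF5A*, *EEF1E1*, *EEF1A2*, *EIF5A2* and *EEF2K*. *EEF1B2* and *EIF5A*, at 371.7 ± 8.61 and 370.9 ± 12.7 FPKM (SD, n = 2), did not differ beyond their spread. *EEF1A2*, at 16.8 ± 1.29 FPKM (SD, n = 2), was 8th in PC9OR and 10th in PC9. Even in PC9OR its level was below that of *EEF1E1*, at 33.0 ± 0.354 FPKM (SD, n = 2). In PC9, *EEF1D* was above *EEF1B2* in each library (254.5 against 161.2 and 350.0 against 260.6 FPKM), while *EIF5A2* at 7.42 ± 0.431 and *EEF2K* at 6.18 ± 1.82 FPKM (SD, n = 2) did not differ beyond their spread. The 10 genes together held 1.60%, 1.98%, 2.25% and 2.27% of all counts.

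Many messages of the translation machinery start with a C followed by a run of pyrimidines, the 5′ terminal oligopyrimidine motif through which mTOR controls their translation. Start sites are shown for the members searched in which a C and at least 4 further pyrimidines stood at the annotated start. They mark the genes with this feature among the members searched. The 60 bases from 40 before to 20 after the start come from RefSeq on GRCh38.p14, and capitals mark the run. *EEF1A1* lies at chr6:73521013-73521072 on the minus strand, a start of *EEF1B2* at chr2:206159855-206159914 on the plus strand, and *EEF2* at chr19:3985444-3985503 on the minus strand.
EEF1A1: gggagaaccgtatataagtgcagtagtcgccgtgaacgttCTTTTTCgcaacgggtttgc
EEF1B2: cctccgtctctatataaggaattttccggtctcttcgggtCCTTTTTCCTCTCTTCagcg
EEF2: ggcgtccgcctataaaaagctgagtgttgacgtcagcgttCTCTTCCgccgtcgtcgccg
These are 3 of the 14 promoters listed for 8 members, and 1429 of all 35116 promoters in the table (4.1%) had such a run on the strand of the gene. *EEF1A2* and *EEF1D* were not in the table. The search was chosen after the values had been seen. The 3 genes with the run had log2 fold changes of 0.45, 0.83 and -0.10. These were 0.58, 0.45 and -0.02 with the length offset, and 0.55, 0.44 and 0.12 with the length and GC offset. No match says only that these letters are not at the annotated start.

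*EEF1A2* lies near the end of the long arm of chromosome 20, and none of its tested neighbours there had a difference as large. Of the 20 tested genes nearest to it, 10 on either side between positions 60985293 and 62330037 of GRCh37, edgeR's quasi-likelihood test called 4 higher and 3 lower at a Benjamini-Hochberg adjusted p under 0.05, near the shares of 15.6% and 20.8% among all genes. Their median log2 fold change was -0.00, and they ranged from -1.35 (*SLCO4A1*) to 1.39 (*STMN3*). The nearest tested gene on the left, *ARFGAP1*, a GTPase-activating protein of the Golgi, had a log2 fold change of -0.04 (SE 0.105). On the right, *PPDPF* had -0.54 (SE 0.322, adjusted p = 0.231 in edgeR's quasi-likelihood test).

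**Figure D4:**
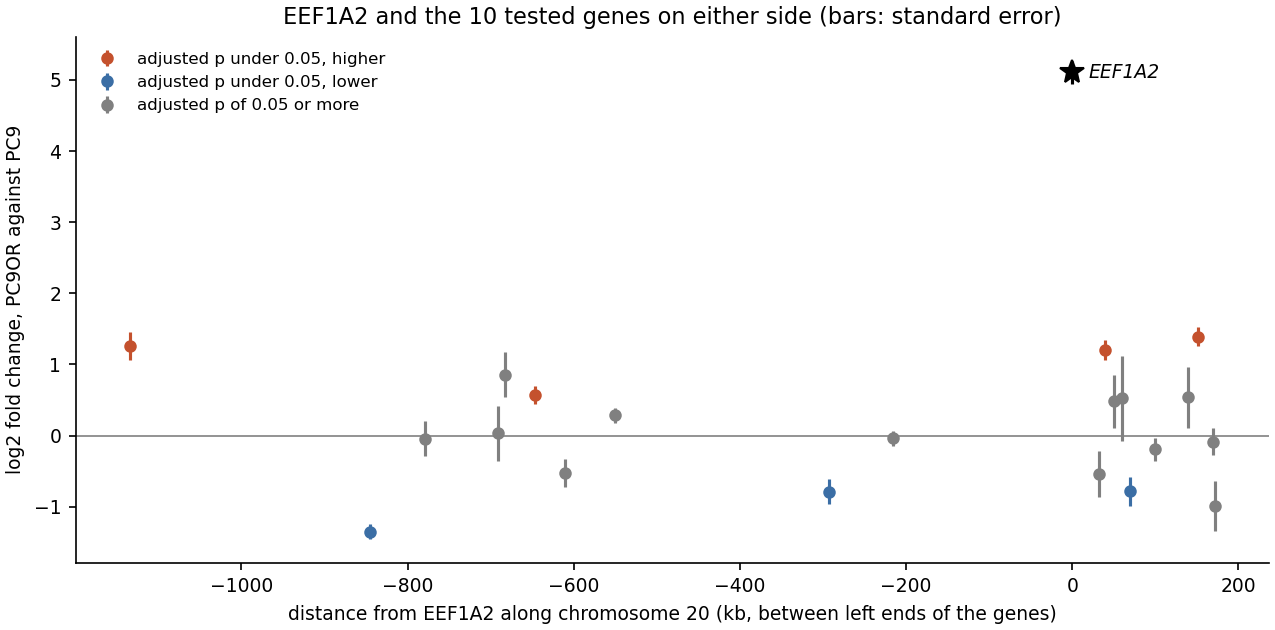
Log2 fold change of PC9OR against PC9 (vertical axis, bars are standard errors) for *EEF1A2* (star, 5.11) and the 10 tested genes on either side of it, by distance along chromosome 20 in kilobases (horizontal axis). The 20 neighbours lie between -1.35 and 1.39.

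The tested genes with the profile across the 4 libraries most like that of *EEF1A2*, by Euclidean distance of centred log2(CPM + 0.5) over 11951 profiles, were *TIAM2* (0.227), *NTN1* (0.37), *MFAP3L* (0.38), *ZNF354C* (0.428) and *RASSF2* (0.429). *RASSF2* had 0.64, 1.11, 28.6 and 27.9 CPM. *TIAM2* and *MFAP3L* were at 0 in both PC9 libraries, and had 14.1 and 14.2 CPM and 9.43 and 12.1 CPM in PC9OR. *NTN1* and *ZNF354C* were at most 0.256 CPM in PC9, and at least 13.1 CPM in PC9OR. For these 4 genes, at or near 0 in PC9, the pseudocount of 0.5 sets much of the distance, and no fold is given. Of the other elongation factor genes, the nearest by this measure was *EEF1B2*, in place 1060.

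The tissues in which *EEF1A2* is normally the main eEF1A gene were checked by their markers. Of 10 neuronal and neuroendocrine markers, 6, among them *CHGA*, were at 0 in all 4 libraries, and the list summed to 0.6, 0.3, 0.73 and 1.15 FPKM. The adhesion molecule *NCAM1* was the only tested gene of this list, at 4.35, 1.87, 5.81 and 9.28 CPM (log2 fold change 1.28, SE 0.487, adjusted p = 0.0925 in edgeR's quasi-likelihood test). It was called higher without PC9 replicate 1 (2.00) and with the length offset (1.69). Of 8 muscle markers, 5 were at 0 in all 4 libraries and the sum was 0.04, 0.01, 0.04 and 0.09 FPKM, with *ACTA1* and *TTN* the most abundant. Markers of blood, fibroblasts and endothelium summed to 13.1, 9.36, 3.77 and 3.52 FPKM, led by *CD68*. Of them *CD68* and *CDH5* were called lower, *CDH5* with 34.7, 24.0, 5.06 and 4.78 CPM (log2 fold change -2.57, SE 0.234, adjusted p = 0.00529 in edgeR's quasi-likelihood test), while the leukocyte genes *PTPRC* and *CD3E* were at or near 0. The epithelial and lung markers summed to 2579, 2989, 5720 and 5511 FPKM, led by *KRT18*, and 4 of them were called higher and 2 lower (*CDH1* and *MUC1*). The part of these shifts in the elongation factor values was not tested.

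Around the elongation factors, 98 genes in 6 lists of the translation machinery were followed, of which 93 were tested. edgeR's quasi-likelihood test called 14 higher in PC9OR and 19 lower and left 60 not called at a Benjamini-Hochberg adjusted p under 0.05, 15.1% and 20.4% of them, beside 15.6% and 20.8% of all genes. The median log2 fold change of the 93 was 0.16. The counts of 14 and 19 rose with either PC9 replicate left out and fell with either PC9OR replicate left out. Those over all genes did so too. The adjusted p-values below come from the same test over all 13148 genes.

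Enzymes that modify elongation factors, among them the methyltransferases of eEF1A and the enzymes that make diphthamide on eEF2 and hypusine on eIF5A, were split: of 14 tested, 2 were higher, 2 lower and 10 not called (median log2 0.12). Both directions occurred within diphthamide synthesis. *DPH1* rose, with 29.9, 33.7, 58.2 and 54.8 CPM (log2 fold change 0.83, SE 0.123, adjusted p = 0.0111), while *DPH2*, whose protein forms a complex with that of *DPH1* for the first step, fell, with 93.0, 93.1, 50.5 and 47.8 CPM (-0.92, SE 0.107, adjusted p = 0.00731). Both pairs of replicates were tight and the lines did not overlap for either gene. *EEF2KMT*, the eEF2 lysine methyltransferase, was called higher (0.65) and *EEF1AKMT3*, a lysine methyltransferase of eEF1A, lower (-0.57).

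Of the 11 tested termination, recycling and rescue factors, 1 was higher, 2 lower and 8 not called (median log2 -0.06). *HBS1L*, which rescues stalled ribosomes with pelota, rose with a log2 fold change of 0.75, or 1.14 with the length offset. *MCTS1*, a ribosome recycling factor, fell from 40.7 and 32.3 CPM to 17.7 and 15.8 CPM (-1.12, SE 0.167, adjusted p = 0.0112), and its estimate was -0.40 with the length offset. *GTPBP2*, a GTPase of ribosome rescue, was lower by a smaller margin (-0.55).

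Of the 5 mitochondrial elongation factors, 2 were higher and 3 not called, with a median of 0.35. *GFM2*, a factor of mitochondrial ribosome recycling, had 70.5, 81.0, 142 and 156 CPM (log2 fold change 0.98, SE 0.126, adjusted p = 0.00876), and *GFM1*, the mitochondrial translocase, had 65.7, 79.9, 123 and 136 CPM (0.83). The lowest estimate was that of *GUF1*, at -0.22 (SE 0.121).

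Among the 11 genes of valyl-tRNA synthetase, which binds the eEF1 complex, and of the multi-tRNA synthetase complex, 2 were higher, 1 lower and 8 not called (median log2 0.27). *VARS1*, the valyl-tRNA synthetase, fell from 254 and 184 CPM to 96.1 and 96.5 CPM (log2 fold change -1.18, SE 0.177, adjusted p = 0.0112). The difference between the lines exceeded that between the PC9 replicates. *IARS1*, the isoleucyl-tRNA synthetase, was higher by 0.43 on the log2 scale.

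Initiation factors held the most calls. Of 38 tested, 4 were higher, 12 lower and 22 not called, with a median log2 fold change of -0.10, and the lower share of 31.6% stood beside 20.8% of all genes. The lower count rose without PC9 replicate 1 and fell without either PC9OR replicate, as did that over all genes. Of the scaffold proteins of cap-dependent initiation, *EIF4G3* fell from 132 and 96.5 CPM to 38.4 and 31.6 CPM (log2 fold change -1.70, SE 0.201, adjusted p = 0.00749), and *EIF4G1* and the related *EIF4G2* were called lower too. *EIF1*, a factor of start codon choice, fell from 298 and 227 CPM to 104 and 94.4 CPM (-1.40, SE 0.167, adjusted p = 0.00761). *EIF5B*, which joins the ribosomal subunits, fell from 212 and 144 CPM to 64.1 and 75.1 CPM (-1.35, SE 0.218, adjusted p = 0.0127). In the other direction, the helicase *EIF4A2* rose from 139 and 191 CPM to 395 and 444 CPM (1.34, SE 0.185, adjusted p = 0.00982). The helicase cofactor *EIF4H* (0.95), *EIF3K* (0.94) and *EIF2B1* (0.50) were also higher. With the length offset *EIF4G1* was at -0.34 and *EIF3K* at 0.54. The remaining lower calls were *EIF4EBP2*, a repressor of eIF4E (-0.96, or -0.43 with the length offset), *EIF2S3* and the eIF3 subunits *EIF3B*, *EIF3C*, *EIF3F*, *EIF3I* and *EIF3J*.

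Of the 14 genes in the list around eEF2K and its substrate, from mTOR complex 1 and AMPK to calmodulin and the phosphatase PP2A, 3 were higher, 2 lower and 9 not called (median log2 0.18). *CALM2*, a calmodulin gene, rose by 0.96 on the log2 scale. *RPTOR*, the mTOR complex 1 subunit that recruits substrates, fell from 86.9 and 59.9 CPM to 37.5 and 34.8 CPM (log2 fold change -1.02, SE 0.204, adjusted p = 0.0204), and its estimate was -0.53 with the length offset. *PRKAA2*, a catalytic subunit of AMPK, was lower (-0.83, or -0.16 and not called with the length offset), and *RPS6KB1*, the S6 kinase, was higher (0.41). *MTOR* had a log2 fold change of -0.60 (adjusted p = 0.0567), and 0.05 with the length offset.

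**Figure D5:**
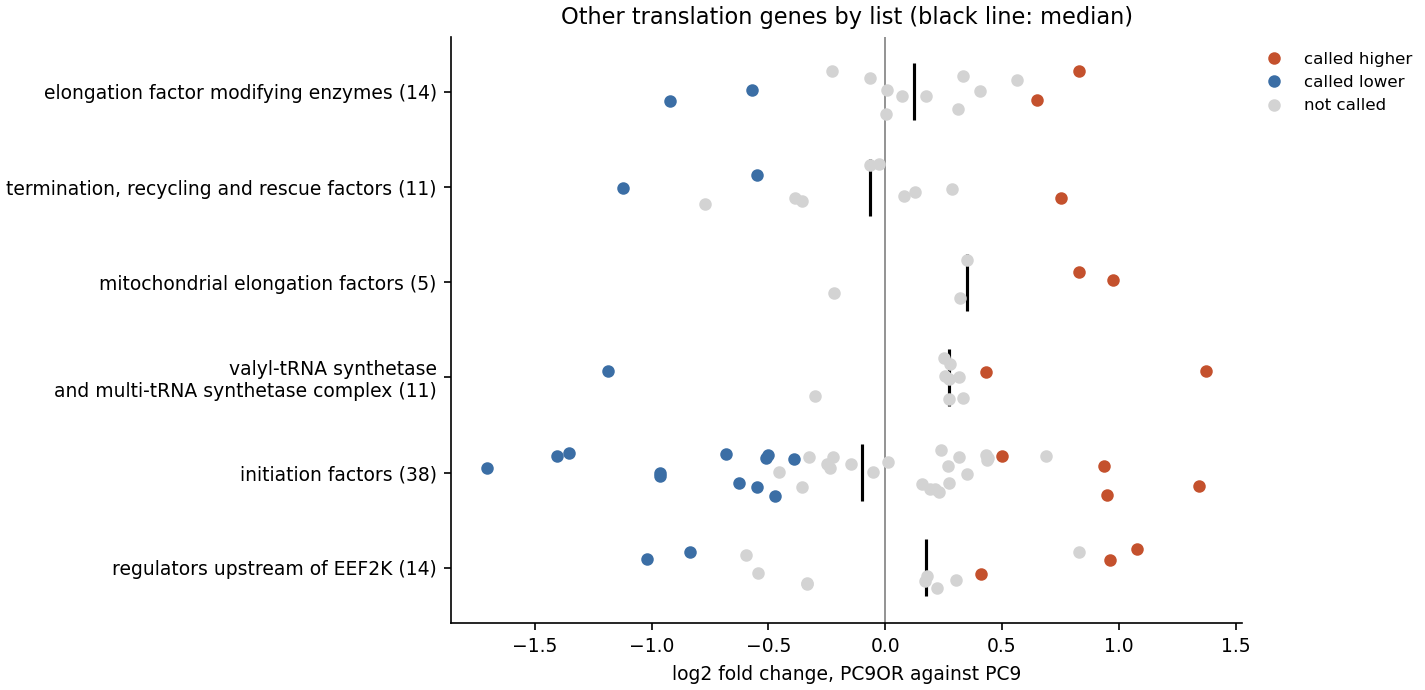
Log2 fold change of PC9OR against PC9 (horizontal axis) of the 93 tested genes in 6 lists of the translation machinery, with the number tested in parentheses and a black line at each median. Red points were called higher, blue points lower and grey points neither at a Benjamini-Hochberg adjusted p under 0.05; vertical scatter within a list is for legibility. The initiation factors hold 12 of the 19 lower calls.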

How the data were processed

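The files that the authors deposited, 1 per library, give an expected count per gene (estimated reads, unscaled), its FPKM (per kilobase of transcript and sequencing depth) and, as the other quantity, the transcript length. Only genes above 0 are listed, so a missing gene was set to 0. The submitters' processing notes name Bowtie2 2.2.5, RSEM 1.2.12 and GRCh37, without their roles. Entrez identifiers were matched to symbols for 99.74% of 16813 genes.

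After rounding, expected counts were compared with edgeR 4.0.16 under R 4.3.3 (filterByExpr, TMM, glmQLFit and glmQLFTest) on 2 PC9 and 2 PC9OR libraries without covariates, with Benjamini-Hochberg adjustment over 13148 genes. A gene was called at an adjusted p under 0.05. The fit was also run on simulated counts with the same spread in every library, unlike the data. No conclusion is drawn from that run. Alternatives used DESeq2 1.42.0, limma 3.58.1 on FPKM, offsets fitted with mgcv 1.9.3, other filters, the replicate number as a block and each library left out. Shares were taken in FPKM. Positions came from GENCODE on GRCh37.

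The members and lists were chosen with earlier results of these data known. Named genes are the 10 members, list genes called and past 2-fold (otherwise the list's highest and lowest), the nearest neighbours of *EEF1A2* and the 5 profiles nearest to it. Other genes named were chosen after their values were seen. Values of 2 list genes that this rule names are left out here.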

Additional observations from a re-analysis of the deposited data

How the results depend on the processing

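The direction of each of the 3 called members was the same under every alternative run. The log2 fold change of *EEF1A2* was 3.57 in limma on log2(FPKM + 1), 4.82 on log2(FPKM + 0.1), 5.01 with the length offset, 5.01 with the length offset and replicate block together and 5.00 with the length and GC offset, which was chosen after seeing the data, and between 5.05 and 5.18 with each library left out. Its share of EEF1A expected counts was 0.0118% in PC9 and 0.292% in PC9OR. Pseudogene rows could not be added to the total, since 0 were listed. Genes called numbered 3138 higher with the length offset and replicate block. With a library left out they ranged from 525 to 3932 higher and from 1177 to 3929 lower.

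Members called higher numbered 2 on library totals, with at least 10 counts in every library, in both limma fits and with the length offset. They numbered 3 with that offset and the block or with GC, 4 in DESeq2's Wald test, 5 with the replicate block and 1 to 6 with a library left out. Members called lower numbered 1 with the length offset, with or without the block, and it was *EIF5A*, which the reported fit did not call. Over all genes, 2418 and 2595 were called lower without and with the block. The number of members called lower fell with either PC9OR replicate left out and was the same with either PC9 replicate left out. *EEF2K* was not called with any offset, *EIF5A2* was not called with the length offset, with or without the block, and neither was called without either PC9OR replicate in turn. List genes called higher numbered 22 with the length offset and block and 24 with length and GC. With a library left out, 3 to 43 were called higher and 5 to 29 lower.

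At more than 2-fold and an adjusted p under 0.001, edgeR's quasi-likelihood test called 0 genes, members or list genes in either direction, and its smallest adjusted p was 0.0015. At an unadjusted p under 0.05 it found 967 higher and 1718 lower genes past 2-fold. DESeq2's Wald test called 502 and 1227 at the stricter threshold, among them 1 member (*EEF1A2*) higher. The replicate numbers shared no more than a label, with a correlation of same-numbered deviations of 0.0553. The replicate block gave 2593 genes higher and 2946 lower, and a log2 fold change of 5.10 for *EEF1A2*. With 2 libraries a line, and the PC9 pair far apart, differences of the size seen in *EEF1A1* or the eEF1B subunits were called under some alternatives and not under others.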
